A study of Homo sapiens with 5 samples.

Results

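The genomic stretch described here is the megabase of chromosome 2 around PDK1, from 172 Mb to 173 Mb (hg38), in a CUT&Tag map of the transcription factor FOXO3A. It was chosen by its number of peaks in U-937 cells, the most of any megabase, 12 of 2272 in the list. The megabase just below it in that order held 11. Its members are the 6 protein-coding genes that overlap it, METAP1D, DLX1, DLX2, ITGA6, PDK1 and RAPGEF4, of 19862 protein-coding genes in the gene table. Because the same list chose the stretch, its peak number and peak values are given as a description, without a test.

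CUT&Tag uses an antibody to bring a Tn5 transposase to chromatin, so that DNA near the antibody's target is cut, tagged and sequenced. The labels name no treatment and 5 libraries: 3 of THP-1 and 2 of U-937, established human lines of monocytic character that the labels class as acute myeloid leukemia. The same antibody to FOXO3A was used throughout. THP-1 and U-937 are each a single long-passaged line, so a value stands for that line and not for a class of leukemia. Each library has its own deposited peak list. U-937 replicate 1 listed 2272 peaks and THP-1 replicate 1 listed 1282, of which 1037 lay on chromosomes, whereas U-937 replicate 2 and THP-1 replicates 2 and 3 were deposited with no peaks anywhere. No value below therefore has a replicate check, and neither an antibody-free control nor the copy number of the stretch was used here.

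FOXO3A is a forkhead transcription factor that growth-factor signalling through AKT keeps out of the nucleus and that binds DNA elements built around a TAAACA core. PDK1 here is pyruvate dehydrogenase kinase 1, a mitochondrial enzyme that phosphorylates and switches off the pyruvate dehydrogenase complex and so holds pyruvate back from the citric acid cycle; its gene is a textbook target of the hypoxia-inducible factor HIF-1. ITGA6 encodes the integrin alpha-6 chain of the laminin receptors, and RAPGEF4 encodes EPAC2, a cyclic AMP-regulated exchange factor for the small GTPase Rap1. DLX1 and DLX2 are neighbouring homeobox genes known for forebrain and craniofacial development, and METAP1D encodes a mitochondrial methionine aminopeptidase, which trims the starting methionine from proteins.

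The 12 U-937 peaks spread over 609 kb, from just upstream of DLX1 to the body of PDK1. Of these, 10 lay within 388 kb, between chr2:172169030-172169278 between DLX2 and the lncRNA LOC107985960 and chr2:172556505-172556794 beside the PDK1 start. The nearest U-937 peak before the 12 was 162 kb away and the nearest after them 1147 kb away. The preceding megabase held 2 U-937 peaks and the following megabase 1. The megabase and both flanks held 0 peaks in THP-1 replicates 1, 2 and 3 and in U-937 replicate 2, which for each of these but THP-1 replicate 1 follows from an empty list.

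**Figure D1:**
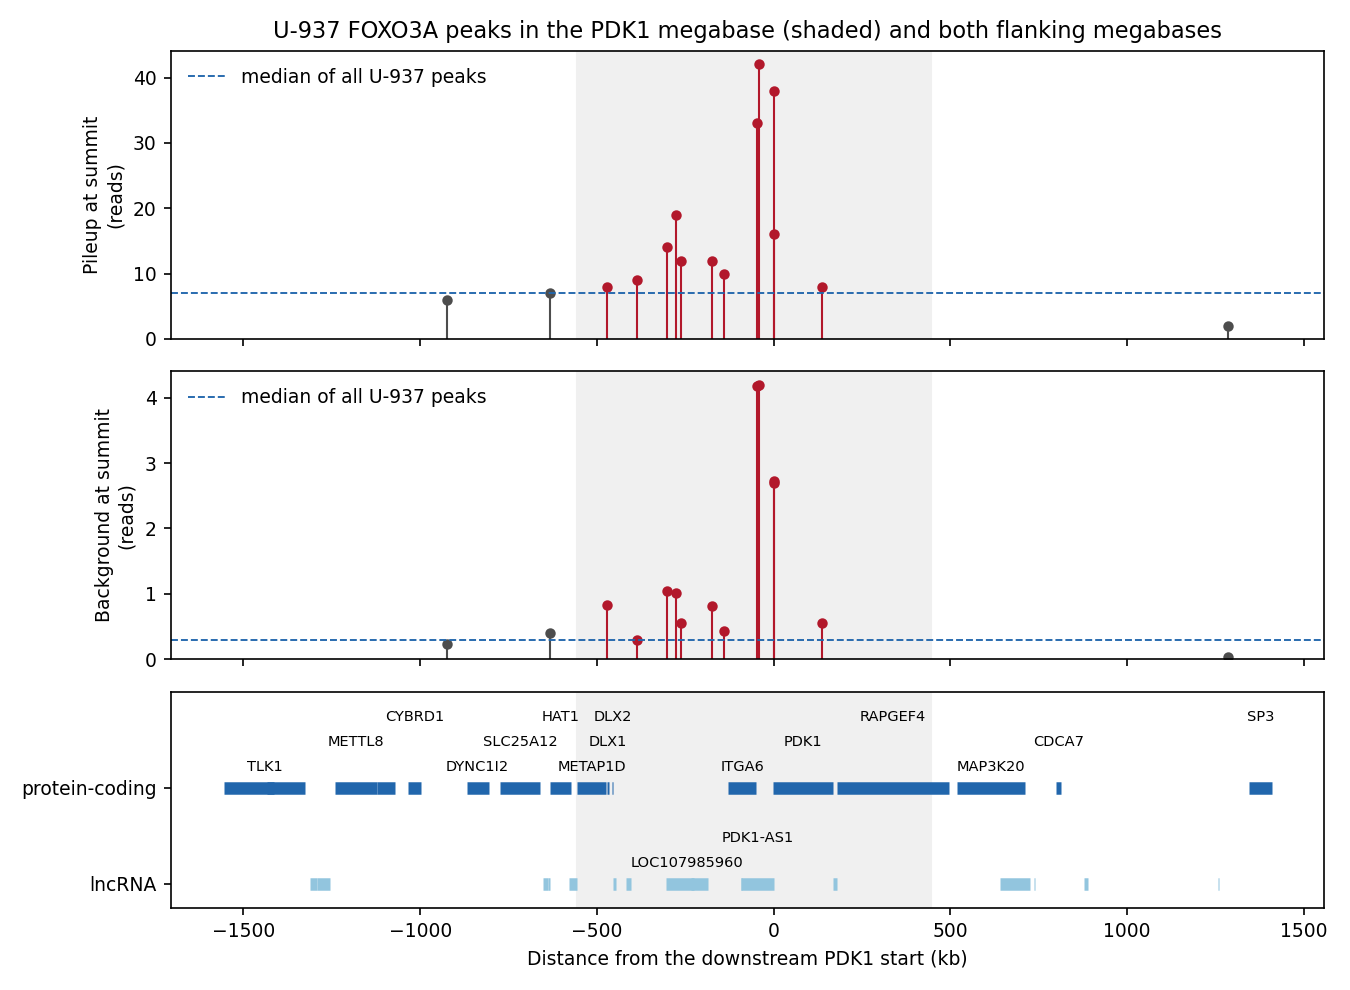
Pileup at the summit (upper panel, reads) and local background there (middle panel, reads) of every U-937 peak in the PDK1 megabase (red, shaded) and both flanking megabases (grey), with protein-coding and lncRNA gene spans (lower panel), against distance in kb from the downstream PDK1 start. The dashed lines are the medians of all 2272 U-937 peaks, 7 reads of pileup and 0.289 of background. The tallest stems are those of 33 and 42 reads beyond the end of ITGA6 and of 38 reads at the PDK1 start. The 3 flanking peaks reach 7 reads at most.

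For each peak a pileup and a background were worked out from the deposited values. The pileup is the number of reads stacked at the summit, and the background is the number expected there. For every U-937 peak (2272 of 2272) a whole pileup k and a background b existed for which the deposited fold equalled (k + 1)/(b + 1) and the deposited p equalled the Poisson chance of more than k reads given b, within 0.001 of -log10 p. The largest misfit was 2.82e-05, whereas pileups midway between whole numbers matched 25 peaks and one for the chance of k reads or more matched 2. Pileups and backgrounds rest on this formula, because no source used here names the peak caller. Intervals given with pileups are exact 95% Poisson intervals and cover counting error only.

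The strongest peak of the stretch by fold and by q lay at the start of PDK1, at chr2:172555497-172556159 (663 bp). RefSeq places 2 PDK1 starts on the plus strand, at 172555373 and 172556090, and the summit fell between them, 411 bp after the upstream start and 306 bp before the downstream one. The peak had a pileup of 38 reads (27 to 52) over a background of 2.69, an authors' fold enrichment of 10.6 and a -log10 q of 24.3. Of all 2272 U-937 peaks it ranked 10 by q and by pileup, but 95 by fold. By the formula above, a higher background lowers the fold at a given pileup, and its place near the top of the list thus depended on the column used.

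A smaller peak followed 345 bp further on, at chr2:172556505-172556794 (290 bp). It lay 176 bp before the start of PDK1-AS1, a lncRNA transcribed from the minus strand across both PDK1 starts toward ITGA6. Its pileup was 16 reads (9.15 to 26) over a background of 2.72, with a fold of 4.57 and a -log10 q of 4.11. The summits of both peaks bracket the downstream PDK1 start and the PDK1-AS1 start, and CUT&Tag assigns neither peak to a strand.

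Sequence upstream of the starts touched or approached by these peaks is shown because it separates the start inside the PDK1 peak from the start outside it. Each line gives the 250 bases before a RefSeq start (GRCh38.p14, the same assembly as hg38), 5′ to 3′ on the gene's own strand, with capitals for every match, on either strand, to 1 of 11 short motifs. The motifs were the forkhead site GTAAACA with its shorter core TAAACA, the insulin response element CAAAACA, the hypoxia response core ACGTG, the E-box CACGTG, the ETS site CCGGAAG, the SP site GGGCGG, the CCAAT box, the cyclic AMP response element TGACGTCA, the AP-1 site TGACTCA, and the TATA box TATAAA. The forkhead site contains its core, and the E-box contains the hypoxia response core on both strands, so those matches overlap. The stretches are chr2:172555840-172556089 (downstream PDK1 start, plus strand), chr2:172555123-172555372 (upstream PDK1 start, plus), chr2:172556465-172556714 (PDK1-AS1, minus), chr2:172085257-172085506 (DLX1, plus) and chr2:172294329-172294578 (the start of LOC107985960 at 172294579, plus).
PDK1, downstream start: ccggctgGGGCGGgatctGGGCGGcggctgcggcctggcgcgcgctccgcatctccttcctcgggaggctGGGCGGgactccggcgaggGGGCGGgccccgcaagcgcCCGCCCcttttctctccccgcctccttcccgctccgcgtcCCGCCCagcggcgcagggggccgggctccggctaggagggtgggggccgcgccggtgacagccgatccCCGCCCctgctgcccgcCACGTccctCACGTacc
PDK1, upstream start: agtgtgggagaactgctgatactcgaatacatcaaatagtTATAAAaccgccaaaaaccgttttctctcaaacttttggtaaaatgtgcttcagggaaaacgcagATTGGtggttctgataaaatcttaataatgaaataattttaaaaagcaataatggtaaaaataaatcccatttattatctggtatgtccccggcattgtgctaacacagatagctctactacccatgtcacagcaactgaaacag
PDK1-AS1: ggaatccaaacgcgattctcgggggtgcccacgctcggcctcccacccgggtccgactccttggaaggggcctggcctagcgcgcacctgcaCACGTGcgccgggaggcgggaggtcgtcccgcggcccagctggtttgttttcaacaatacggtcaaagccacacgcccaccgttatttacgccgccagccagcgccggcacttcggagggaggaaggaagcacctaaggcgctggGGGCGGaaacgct
DLX1: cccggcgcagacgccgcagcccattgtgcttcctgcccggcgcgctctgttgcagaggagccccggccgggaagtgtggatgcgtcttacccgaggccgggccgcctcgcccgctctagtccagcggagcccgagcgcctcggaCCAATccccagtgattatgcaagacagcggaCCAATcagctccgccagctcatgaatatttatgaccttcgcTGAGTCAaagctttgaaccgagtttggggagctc
LOC107985960, start at 172294579: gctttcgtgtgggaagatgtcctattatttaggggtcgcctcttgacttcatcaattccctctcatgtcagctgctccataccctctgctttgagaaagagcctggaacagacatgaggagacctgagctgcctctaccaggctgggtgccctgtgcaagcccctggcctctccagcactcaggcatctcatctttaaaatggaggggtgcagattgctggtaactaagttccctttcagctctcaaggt

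All 250 bases before the downstream PDK1 start lay inside the PDK1 peak, and none of those before the upstream start did. Over the full window of 250 bases before to 50 after a start, the downstream window was 77% G or C with 38 CpG pairs, against 36.3% and 6 CpG pairs at the upstream start; over all 35116 RefSeq windows the medians were 58.7% and 14. The downstream window held 7 matches to the SP motif GGGCGG, a number reached by 0.960% of all windows, while 45% of windows held at least 1. It also held 2 matches to the hypoxia response core, at 17 and 8 bases before the start, and no E-box; 21.4% of windows held at least 1 match to that core. The upstream window held 1 inverted CCAAT and 1 TATAAA and no SP or hypoxia core match. The only TATAAA in the 5 printed stretches is at that upstream start, 210 bases before it.

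The PDK1-AS1 window was 69% G or C with 33 CpG pairs, and 210 of its 250 upstream bases lay in the smaller peak. It held 1 E-box CACGTG, found in 7.26% of windows, and 1 SP match. Neither forkhead motif had a match in the windows of PDK1 or PDK1-AS1. GTAAACA was found in 3.42% of all windows and TAAACA in 12.3%. Over the 11 windows of the 6 members, TAAACA had 1 match at the upstream ITGA6 start and 1 at the RAPGEF4 start at 172860142, and no U-937 peak overlapped either window. These matches describe letters in short windows around starts. The windows covered 300 of the 663 bases of the PDK1 start peak and did not include its summit at 172555784. Sequence outside the windows, including the rest of that peak and most of the other peaks, was not analysed here.

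Further into PDK1-AS1, past the end of ITGA6, 2 more peaks were among the tallest of the list. The first, chr2:172510056-172510422 (367 bp), lay 3777 bp beyond the ITGA6 end and had a pileup of 33 reads (22.7 to 46.3) over a background of 4.17, with a fold of 6.57 and a -log10 q of 13.6. The other, chr2:172513535-172514415, was the widest peak of the stretch (881 bp). It lay 7397 bp beyond the ITGA6 end and had a pileup of 42 reads (30 to 57) over 4.19, with a fold of 8.28 and a -log10 q of 21.5. The pileup intervals of these peaks and of the PDK1 start peak overlap, so their order by pileup is not resolved. The 2 peaks beyond ITGA6 were 3112 bp apart. With the peaks at both starts, the PDK1-AS1 span and the 1000 bp around it held 4 peaks whose pileups sum to 129 reads, 58.4% of the 221 reads summed over the 12.

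The remaining 8 peaks were lower, with pileups of 8 to 19 reads (median 11), each above the list's median of 7. LOC107985960, an uncharacterized lncRNA of 119748 bp, held 3 of them. Its middle peak, chr2:172280899-172281200, had the highest pileup of the 8, 19 reads (11.4 to 29.7) over 1.02, and a fold of 9.89, second in the stretch to the PDK1 start. The peak chr2:172253208-172253633 lay 2890 bp after the gene's outermost start with 14 reads over 1.04, and chr2:172294197-172294405 lay 304 bp before the start at 172294579 with 12 reads over 0.559. That last peak covered 77 of the 250 bases printed above for this start, in which none of the 11 motifs had a match and the window held 2 CpG pairs.

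ITGA6 had no peak in its span or within 1000 bp of it. The U-937 peaks nearest to its starts at 172427336 and 172427586 lay upstream, chr2:172416387-172416638 at 10784 bp (10 reads over 0.434, fold 7.67) and chr2:172380707-172380996 at 46462 bp (12 reads over 0.810, fold 7.18). ITGA6 was thus bracketed by 2 peaks before it and 2 taller ones after it, with none over the 79124 bp of the gene itself. Between DLX2 and LOC107985960, in no annotated gene, lay chr2:172169030-172169278, 66216 bp from DLX2, with 9 reads over 0.289.

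DLX1 had 1 peak, chr2:172084794-172085247, whose summit lay 355 bp before its start. It was the weakest of the 12 by q, with 8 reads (3.45 to 15.8) over 0.829, a fold of 4.92 and a -log10 q of 2.76. It ended short of the DLX1 window, so none of the DLX1 bases printed above lay in it; that window held 2 CCAAT matches and 1 AP-1 match. DLX2, 1 gene further on, had its start 17748 bp from the nearest summit. METAP1D ended 2722 bp before the same summit, and its start was 77620 bp away.

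PDK1 also had 1 peak in its body, chr2:172693724-172693944, with 8 reads over 0.559, a fold of 5.77 and a -log10 q of 3.93. RAPGEF4, the next gene, had no peak. Its 4 RefSeq starts lay 42075, 128055, 166372 and 234382 bp beyond the PDK1 body summit. No U-937 peak was listed over its 317576 bp. The window at its start at 172735845 was the richest in G or C of the 11 member windows (81.7%) and held 6 SP matches, but lay in no peak.

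**Figure D2:**
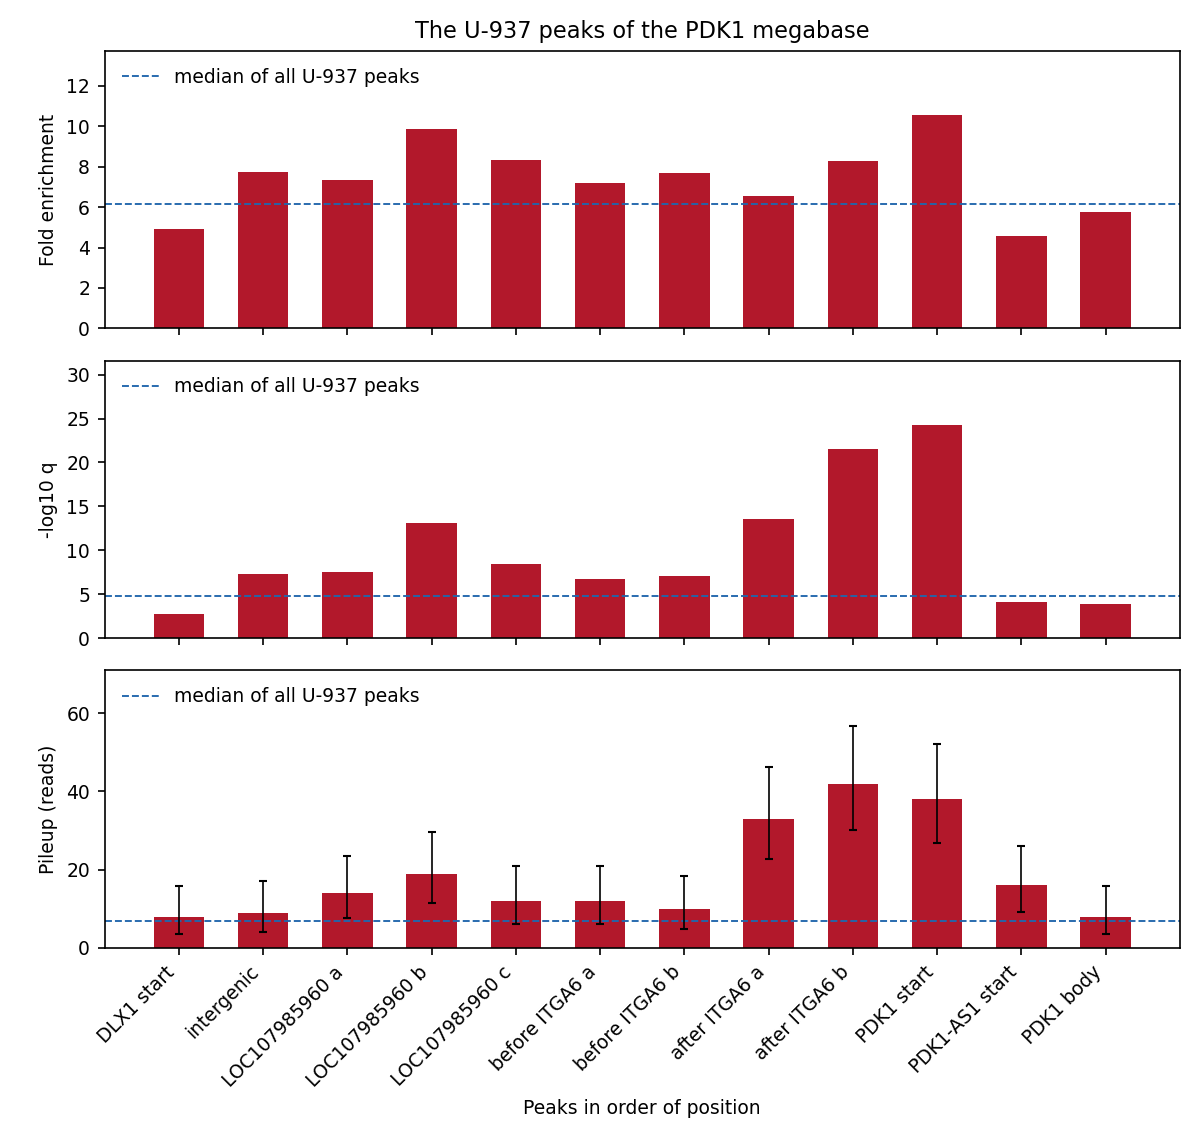
Authors' fold enrichment (upper panel, linear ratio), -log10 q (middle panel) and pileup in reads with exact 95% Poisson intervals (lower panel) of the 12 U-937 peaks of the PDK1 megabase, in order of position; dashed lines are medians of the 2272 U-937 peaks (6.16, 4.79 and 7). All 12 pileups are above the list's median, but 3 peaks (DLX1 start, PDK1-AS1 start and PDK1 body) are below it in fold and in q.

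Counted by gene, 2 of the 6 members, DLX1 and PDK1, had a U-937 summit within 1000 bp of either end of the gene (a gene boundary). Over all protein-coding genes the share was 7.02% (1395 of 19862). No further member is added when the whole span is counted as well, which gave 9.98% of all genes (1982). For THP-1 the count was 0 of 6, against 0.222% of all genes (44). The members were chosen through these U-937 peaks, so nothing is read from the U-937 counts.

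Most peaks of the stretch lay away from gene boundaries. Summits within 1000 bp of a coding or lncRNA gene boundary numbered 3 of 12 (25%, exact Clopper-Pearson 95% interval 5.49 to 57.2), and in the rest of the list 1199 of 2260 (53.1%, 51.0 to 55.1). These shares are descriptions of 1 list, and the intervals cover counting error only. Counted at RefSeq starts alone, 4 of 12 peaks were near one, including the LOC107985960 start, against 48.2% of the list. The median distance to a boundary was 9049 bp, against 610.5 bp in the list. More than 10 kb from any boundary lay 6 of the 12 peaks (50%) and 590 of 2272 (26%).

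By value the 12 peaks stood above the middle of the list, most clearly in pileup. Their median fold was 7.51 (4.57 to 10.6) against 6.16, and 9 of 12 were above the list's median. Their median -log10 q was 7.43 against 4.79 (9 of 12 above), their median width 296 bp against 238 bp, and their median pileup 13 reads against 7 (12 of 12 above). The 12 peaks were 0.528% of the peaks and carried 1.19% of the summed pileup (221 of 18517 reads).

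Background was the measure in which the PDK1 end of the stretch stood furthest from the list. The median background of the 12 was 0.925 against 0.289, and 11 of 12 were above the list's median. Backgrounds over 4 were found at 8 U-937 peaks, of which 6 lay on annotated nuclear copies of mitochondrial genes and the other 2 were the peaks beyond ITGA6. Backgrounds over 2 were found at 13 peaks, 7 of them on such copies and 4 in the PDK1 megabase. The remaining 2, chosen for mention after their values were seen, lay at CIC (2.81), which encodes a transcriptional repressor, and in SIN3A (2.33), which encodes a corepressor scaffold.

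Outside the 13 peaks on mitochondrial copies, the 4 peaks of the PDK1-AS1 span ranked 1, 2, 4 and 5 by background among 2259. Neighbours had nearly equal values, 4.17 and 4.19 beyond ITGA6 and 2.69 and 2.72 at the starts. Close peaks may share a local window, so these 4 ranks are not separate measurements. By pileup, the 42, 38 and 33 reads ranked 2, 3 and 4, the last of these tied with a peak at VMAC, with CIC (54 reads) above them. Set beside peaks of the same pileup elsewhere, 9 of the 10 peaks of the stretch that have such peers were above their peers' median background. For some of them this says little. The peak of 33 reads had 1 peer. The peak chr2:172416387-172416638 had 0.434 against a median of 0.405 (above 71 of 133 peers), and chr2:172294197-172294405 had 0.559 against 0.492 (above 49 of 78). The PDK1-AS1 start peak (16 reads) had a background of 2.72, above all 29 peers (0.472 to 1.27). It lies 345 bp from the PDK1 start peak of 38 reads, whose background was 2.69. The peers were not chosen to have such a neighbour. The DLX1 peak (8 reads) had 0.829, above 225 of 226 peers (median 0.328). The intergenic peak after DLX2 was the exception, at 0.289 against a median of 0.386. All 2272 U-937 backgrounds were whole multiples of 0.00964. In steps of 0.0193, 0 of them were below the pileup of their own peak. All 164 peaks with a pileup of 2 had the lowest background, 0.0386. Reads of the peaks themselves and of close neighbours can enter a local background. How large a part they have in these values was not tested, and neither was copy number.

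**Figure D3:**
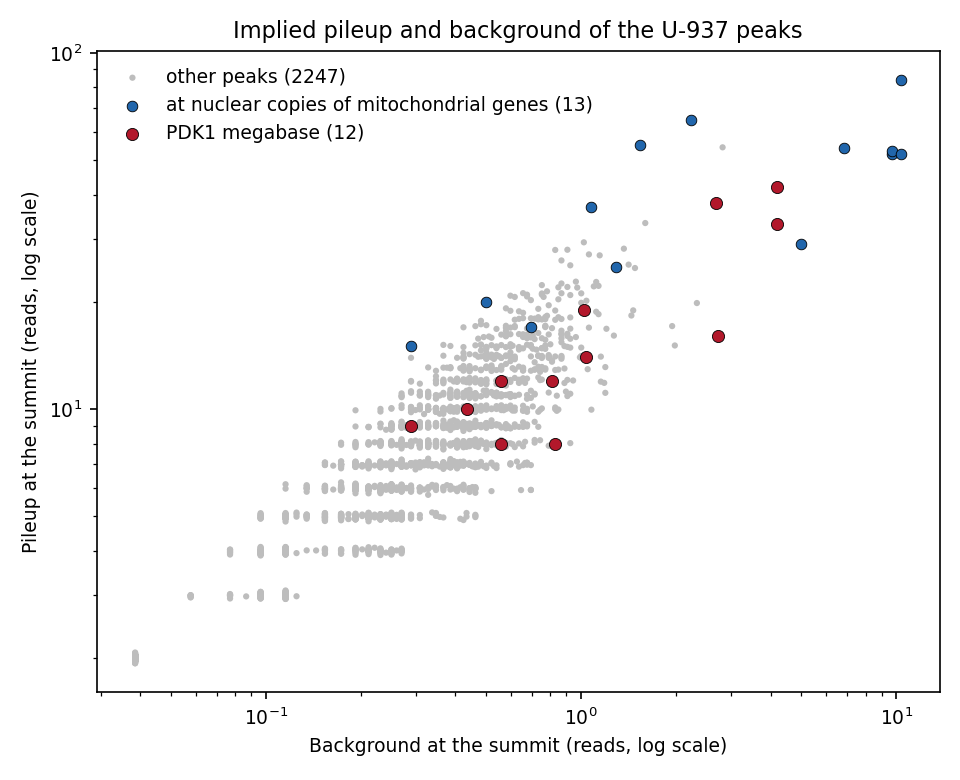
Pileup at the summit against local background at the summit (both in reads, log scales) for the 2272 U-937 peaks: 12 in the PDK1 megabase (red), 13 on nuclear copies of mitochondrial genes (blue) and 2247 others (grey, offset slightly so that equal values show). The 4 red points with backgrounds of 2.69 to 4.19 lie to the right of nearly all grey points, and the other 8, with 0.289 to 1.04, lie within the grey cloud.

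Among megabases, the PDK1 stretch differed from the other dense ones in how few genes it holds. U-937 peaks fell in 1204 megabases, with a median of 1 peak. On chromosome 2, 109 megabases held 194 peaks, and after the PDK1 megabase the highest count was 5. The 7 other megabases with 8 or more peaks held 23 to 56 protein-coding genes (median 29), and 5 of them were on chromosome 19. The PDK1 megabase held 6 protein-coding and 7 lncRNA genes, hence 2 peaks per coding gene, where the other 7 had 0.190 to 0.357.

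Each megabase is named here by the protein-coding gene nearest to its peak of highest fold. The next in order was that of SCAF1, a gene for an SR-related splicing factor, on chromosome 19, with 11 peaks. That of SPTBN4, which encodes a beta spectrin, had 10, and those of ELL, KLHDC3, SYNGR4, KHSRP and DNAAF9 had 8 each. In these 7 megabases 50% to 87.5% of peaks were at a gene boundary, against 25% here. Their summed pileups were 64 to 142 reads against 221, and their median backgrounds 0.328 to 0.636 against 0.925. High median fold and pileup were not particular to the PDK1 megabase (7.51 and 13 reads). They were 8.03 and 14 for SCAF1, 8.05 and 11 for SPTBN4, and 8.62 and 12 for ELL. Both were lower for KLHDC3, SYNGR4, KHSRP and DNAAF9. By summed pileup the megabase second to PDK1 was one on chromosome 5 (159 reads) that holds mitochondrial copies.

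**Figure D4:**
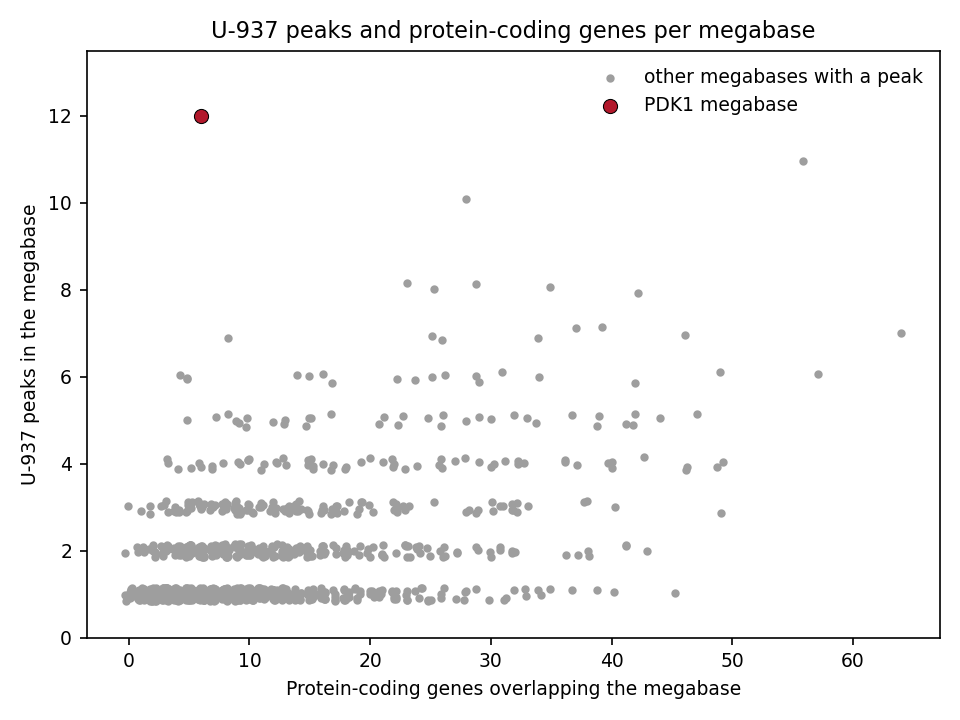
Number of U-937 peaks against number of protein-coding genes for each of the 1204 megabases with a peak (points offset slightly so that equal values show). The PDK1 megabase (red) has 12 peaks over 6 protein-coding genes, and the other megabases with 8 or more peaks have at least 23 genes.

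The first place of the PDK1 megabase rests on where the bins fall. With a 1 Mb window slid along the genome it held 13 peaks, as did the densest window elsewhere. In bins of 500 kb the densest bin of the stretch held 7, as did the densest elsewhere, and in bins of 2 Mb it held 13, which was 0.684 times the densest. Among peaks with a -log10 q of at least 5 it held 9, equal to another megabase. By summed pileup its lead was larger, 1.39 times the next, against 1.09 times by number; the summed pileup was added after the data had been seen.

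Counted by gene body plus 1000 bp on each side, PDK1 held 3 U-937 peaks, the most of any protein-coding gene, together with 7 others. These were BCOR, CNIH3, ESYT2, MYO9B, RANBP2, RBPJ and TNKS, and the likeness is the number of peaks alone. The pileups of the 3 PDK1 peaks summed to 62 reads, whereas those of the other 7 summed to 18 to 34, with no peak above 15 reads. In PDK1 the sum came mainly from the start peak.

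The members' relatives in their own pathways were read from 5 lists of 38 genes, members included. Of these, 3 had a U-937 boundary peak (PDK1, DLX1 and MPC2), where 7.02% of all protein-coding genes did. PDK1 and DLX1 are members, chosen through these peaks, so nothing is read from that share. Of 14 genes for the pyruvate dehydrogenase complex, its kinases, phosphatases and pyruvate carriers, 2 had a U-937 boundary peak: PDK1, and MPC2, a subunit of the mitochondrial pyruvate carrier, with a peak at chr1:167936146-167936379, 843 bp from a boundary (7 reads over 0.386, fold 5.77, -log10 q 3.94). PDK2, PDK3 and PDK4, the other pyruvate dehydrogenase kinases, had their nearest summits 386672, 557424 and 302426 bp from a boundary. Of the phosphatase genes that reverse the kinases, PDP2 had the nearest summit, at 7052 bp, with 7 reads over 0.202.

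Among 5 genes of the laminin-binding integrins, which include ITGA6, 0 had a boundary peak, and ITGA6 itself was the closest at 3777 bp, ahead of its partner chain ITGB1 at 22497 bp. ITGA6 lies in the stretch chosen for its U-937 peaks, so nothing is read from its being the closest. Among 10 genes of Rap1 signalling, which include RAPGEF4, 0 had a boundary peak. Among 6 DLX genes DLX1 alone did, and among 3 methionine aminopeptidases 0 did. Leaving out the 6 members, 1 of the 32 related genes had a U-937 boundary peak, against 7.02% of all protein-coding genes. None of the 38 had one in THP-1, where 0.222% of all genes did.

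In THP-1 the stretch was empty within a wide gap. Of the 1037 THP-1 peaks on chromosomes, 48 were on chromosome 2 and 0 in the PDK1 megabase, which allows a share of up to 0.289% there (counting error only). These 48 can fill at most 48 megabases of chromosome 2, where U-937 peaks fell in 109. An empty megabase is thus common in the THP-1 list. The nearest THP-1 peak before the megabase was chr2:161278788-161279192, 10721 kb away (fold 4.79, pileup 11 reads), and the nearest after it chr2:174579483-174579797, 1579 kb away (fold 4.79, pileup 8). The nearest THP-1 summit was 1526615 bp from a boundary of RAPGEF4 and 2497078 bp from one of METAP1D, with the other members between. The lowest pileup listed was 7 reads for THP-1 but 2 for U-937, and the lowest background 0.835 but 0.0386. Whether a site with the U-937 pileups would have been listed in THP-1 was not tested.

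The flanking megabases held 3 U-937 peaks, each with a pileup at or below the list's median. At chr2:171922255-171922542 a peak of 7 reads over 0.405 (fold 5.69, -log10 q 3.80) lay at the boundaries of HAT1, a histone acetyltransferase gene, and of the lncRNA LOC105373740. The peak chr2:171631144-171631407 (6 reads over 0.231) lay between genes, 56319 bp from DYNC1I2, and chr2:173841235-173841433 (2 reads over 0.0386) lay 59441 bp from SP3. The last has the lowest pileup and background in the list, a pair shared by 164 peaks.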

How the data were processed

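The authors deposited 1 peak list per library in the narrowPeak layout, not pooled. Per the submitters' processing notes, Bowtie2, Picard and the hg38 build were used; neither versions nor a peak caller is given in the sources. For each peak the authors deposited a score, a fold enrichment (a linear ratio), -log10 p and -log10 q. The score was not used further. Read depth is not stated.

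Positions are 1-based. Peaks on chromosomes were assigned by summit to fixed megabases and to genes of the RefSeq table for GRCh38.p14 (58957 genes; 718 whose coordinates broke chromosome order were left out). A gene boundary is within 1000 bp of either end of a protein-coding or lncRNA gene. Strand and starts came from the RefSeq table of promoter windows; exons and genome sequence were not used here. Pileup and background were solved from fold and p; the THP-1 list matched in 996 of 1037 peaks. The solver and the counts were tested on simulated data. Python 3.11.15, pandas 2.3.3, NumPy 2.4.6, SciPy 1.17.1 and matplotlib 3.10.9 were used.

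The members, gene lists, motifs and alternatives were chosen with earlier results of these data known. Named genes are the members, genes holding or nearest to a peak of the stretch, genes with a peak in the flanks, leading genes of the next dense megabases, coding genes with as many peaks as PDK1, and related genes with a boundary peak; others are named for context. Ties were all kept. No test was run, since 1 library of each line held peaks. Alternatives covered the q threshold, bins, merging, boundary rule and ranking column.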

Additional observations from a re-analysis of the deposited data

How the results depend on the processing

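Of 67 alternatives, 52 stayed within 1.5 times the reported value or its interval, 14 moved further and 1 turned the direction: in bins of 2 Mb the ratio of the stretch to the densest other bin was 0.684, below 1, against 1.09 in megabases. The 52 include alternatives that could not change a value, so their number is not a measure of stability. Among these are leaving out a library with an empty list, the alternatives of the THP-1 count, and a limit to protein-coding genes for counts already so limited. Every U-937 value rests on 1 library: with U-937 replicate 1 or 2 left out, the megabase held 0 to 12 peaks, the flanks 0 to 3, members with a boundary peak were 0 to 2 and all such coding genes 0 to 1395, the 0 values being those without replicate 1, where medians and shares have no value. The THP-1 count was 0 under all its alternatives, none of which could raise it. A stricter q or a library left out only removes peaks. The nearest THP-1 peaks, 10721 kb and 1579 kb from the megabase, lay out of reach of bins shifted by 500 kb. At a -log10 q of at least 5 the flanks held 0 peaks, 1 member (PDK1) had a boundary peak and 781 coding genes did; at 3 or more, 1 member did. With bins shifted 500 kb upstream the flanks held 6 peaks, and with bins shifted downstream the bin with PDK1 held 5 and the flanks 10. In bins of 500 kb the densest bin of the stretch, which lies before the PDK1 start, held 7. Merging peaks within 1 kb or within 10 kb left 11 or 10 peaks and a ratio of 1. The PDK1 start peak ranked 72 by fold among boundary peaks, 5 by q and 2 by pileup, the last added after seeing the data. The bins hold different stretches and the columns different quantities; beyond that the cause was not tested. No paired analysis was possible because the shared replicate numbers join libraries of which 1 per line holds peaks, and no test was run. Pileups of 8 to 42 reads carry counting intervals too wide to order neighbouring peaks.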

Other observations

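Of the 34 megabases with 6 or more U-937 peaks, 5 held fewer than 10 protein-coding genes: that of PDK1 and 4 others, chosen for mention after their values were seen. Named by the protein-coding gene nearest to their peak of highest fold, they were those of ERLIN2 on chromosome 8 (7 peaks, 8 coding genes), EEPD1 and ESYT2, both on chromosome 7 (6 peaks and 5 genes each), and 1 on chromosome 1 (6 peaks, 4 genes) whose peak of highest fold had TOMM20 as its nearest coding gene at 128379 bp, outside that megabase. ERLIN2 encodes an endoplasmic reticulum lipid-raft protein. The summed pileups of these 4 were 47 to 68 reads against 221 around PDK1, and their median backgrounds 0.328 to 0.492 against 0.925. The share of peaks at a gene boundary was lowest in the EEPD1 megabase (16.7%) and 25% around PDK1, and was 33.3% to 66.7% in the other 3.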
